A study of Mus musculus with 6 samples.

Results

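Imprinted genes are expressed from the maternal or the paternal chromosome copy only, in at least some tissues. The 38 symbols described here are known imprinted mouse genes, taken by name from the deposited table of 24421 gene symbols, where all 38 have a row. They fall into 16 imprinted clusters or single-gene domains. The rule that picks them is the gene name and not a level or a change, though the list was drawn up with earlier results of these data known. The libraries are RNA-seq of group 2 innate lymphoid cells (ILC2), tissue lymphocytes without antigen receptors that make IL-5 and IL-13. Brain ILC2 of the inbred mouse strain C57BL/6 were sorted by their surface markers and kept in culture for 2 weeks, in medium with 20% FCS to which IL33, SCF, IL7 and IL2 were added. There are 3 young libraries (mice aged 2 to 3 months) and 3 aged libraries, labelled old (mice aged 20 to 22 months). Both groups had the same culture, and the labels name no genetic change. Whether libraries within a group stem from different animals, or from pools, is not in the labels. The p-values therefore measure the spread between these libraries, which may be technical.

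In each imprinted cluster a stretch of DNA, the imprint control region, is methylated on a single parental copy from the germ line on. The zinc finger protein ZFP57 and its partner TRIM28 hold that methylation through cell division, DNMT1 copies it, and CTCF or a long noncoding RNA then sets which genes of the cluster are silent on which copy. Many imprinted genes act in growth of the embryo and placenta: genes expressed from the paternal copy tend to promote growth, and genes expressed from the maternal copy tend to restrain it. Several are known to be switched off in most adult tissues. The reads here come from an inbred strain, and the table gives 1 count per gene and library, so it does not separate the parental copies. The parental copies named in what follows are background and not a measurement.

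Library totals ran from 16477157 to 20804291 counts. Levels are given as CPM, counts relative to library sizes that were scaled by the trimmed mean of M-values (TMM), whose factors were 1.12 to 1.18 in young and 0.840 to 0.885 in aged libraries. The 10 ILC2 markers, of which Il5 was the most abundant, summed to 7320 to 9113 CPM in young and 4958 to 6968 CPM in aged libraries. Gata3, Il1rl1, Il5 and Klrg1 were called lower in aged libraries and Thy1 higher, while Rora, Il7r, Ptprc, Il13 and Areg did not pass. Klrg1 had 1467, 2026 and 1979 counts in young and 0, 7 and 61 counts in aged libraries. All 4 B cell markers and all 4 markers of NK cells and ILC1 were at 0. The T cell markers summed to 6.78 to 12.99 CPM in young and 6.76 to 14.67 CPM in aged libraries. Sums (young, then aged) were 230.3 to 281.4 and 188.3 to 325.1 CPM for mast cells and basophils, mainly Mcpt8. They were 3.91 to 6.80 and 6.89 to 12.26 CPM for dendritic cells. For astrocytes and oligodendrocytes they were 21.2 to 36.7 and 17.3 to 23.6 CPM. Of the endothelial markers only Pecam1 had counts, at 66.6 to 101.9 and 125.7 to 163.2 CPM, and was called higher in aged libraries. Of the 8 markers of fibroblasts, pericytes and meningeal stroma, Col3a1, Pdgfra and Rgs5 were at 0 in all libraries and the sum was 13.7 to 17.8 CPM in young and 1.55 to 10.9 CPM in aged libraries, with Dcn the most abundant over the 6 libraries. Of the 5 neuron markers Rbfox3 was at 0, and the sum was 0.730 to 3.54 CPM in young and 0.135 to 4.30 CPM in aged libraries. Of the 8 microglia and macrophage markers Csf1r and C1qa were at 0, and the sum was 5.18 to 15.4 CPM in young and 57.9 to 95.8 CPM in aged libraries. Its members differed in direction: Tmem119, Lyz2 and P2ry12 were called higher in aged libraries, Adgre1 was called lower (79, 48 and 34 counts in young and 0 in aged libraries), and Cx3cr1, with means of 3.76 CPM (young) and 0.466 CPM (aged), did not pass. The part of these marker genes in the results was not tested. In bulk RNA, fewer cells of a kind and less RNA per cell cannot be told apart.

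In aged cultures, Dlk1 and Peg10, both paternally expressed growth genes, were lost or nearly lost, and H19, Ascl2 and Cdkn1c appeared or rose. H19 and Cdkn1c are maternally expressed, and Ascl2 is known to be so in placenta. Of the 38 genes, 9 had no count in any library, 8 had too few counts to be tested and 21 were tested. Of those 21, 4 were higher in aged libraries (H19, Ascl2, Cdkn1c and Commd1), 4 were lower (Dlk1, Peg10, Sgce and Cd81) and 13 did not pass, in edgeR's quasi-likelihood test at an adjusted p under 0.05. Over all 11805 genes tested, 19.4% passed, with 11.2% higher and 8.14% lower. Of the calls over all genes 58.0% were higher, and with library totals as the sole scaling 23.2% were, with the median log2 change of all genes at -0.52. Genes such as Dlk1, H19 and Ascl2 passed the filter on low counts through the group where they are high, so the members' share is not read as an enrichment. The young and aged values did not overlap in 10 of the 21 tested genes, beside 38.2% of all genes tested. The median log2 change of the tested members was -0.22, also with genes at 0 in a group set to their bound, beside -0.10 over all genes tested. Without young library 1, only Ascl2, Cdkn1c, Dlk1, H19 and Peg10 were called, and the calls over all genes fell to 1314. They fell to 1515 without young library 2.

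By the parental copy that is known to be active, the 4 genes that were higher are all maternally expressed genes, out of 11 such genes tested. Among those 4, H19 and Ascl2 passed the filter on low counts through the aged group. The Commd1 call was lost under 5 of 17 alternatives. Of the 10 paternally expressed genes tested, none was called higher and Peg10, Sgce and Dlk1 were called lower. Airn and Nnat had positive log2 changes (2.37 and 1.73) that did not pass, and the other paternally expressed genes tested had negative ones. Cd81 is the maternally expressed gene that was called lower. Phlda2, a maternally expressed gene with counts in young libraries only, was not tested. Over all genes tested 11.2% were higher and 8.14% lower. The imprinting of Ascl2, Cd81, Tssc4 and Nap1l4 is known from placenta, that of Commd1 from brain and that of Ube3a from neurons. Gnas is imprinted in some tissues, Inpp5f in a single transcript variant, and Grb10 is paternally expressed in neurons. The active copy of these genes in ILC2 may therefore be another. These are counts within a small list and carry no test.

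**Figure D1:**
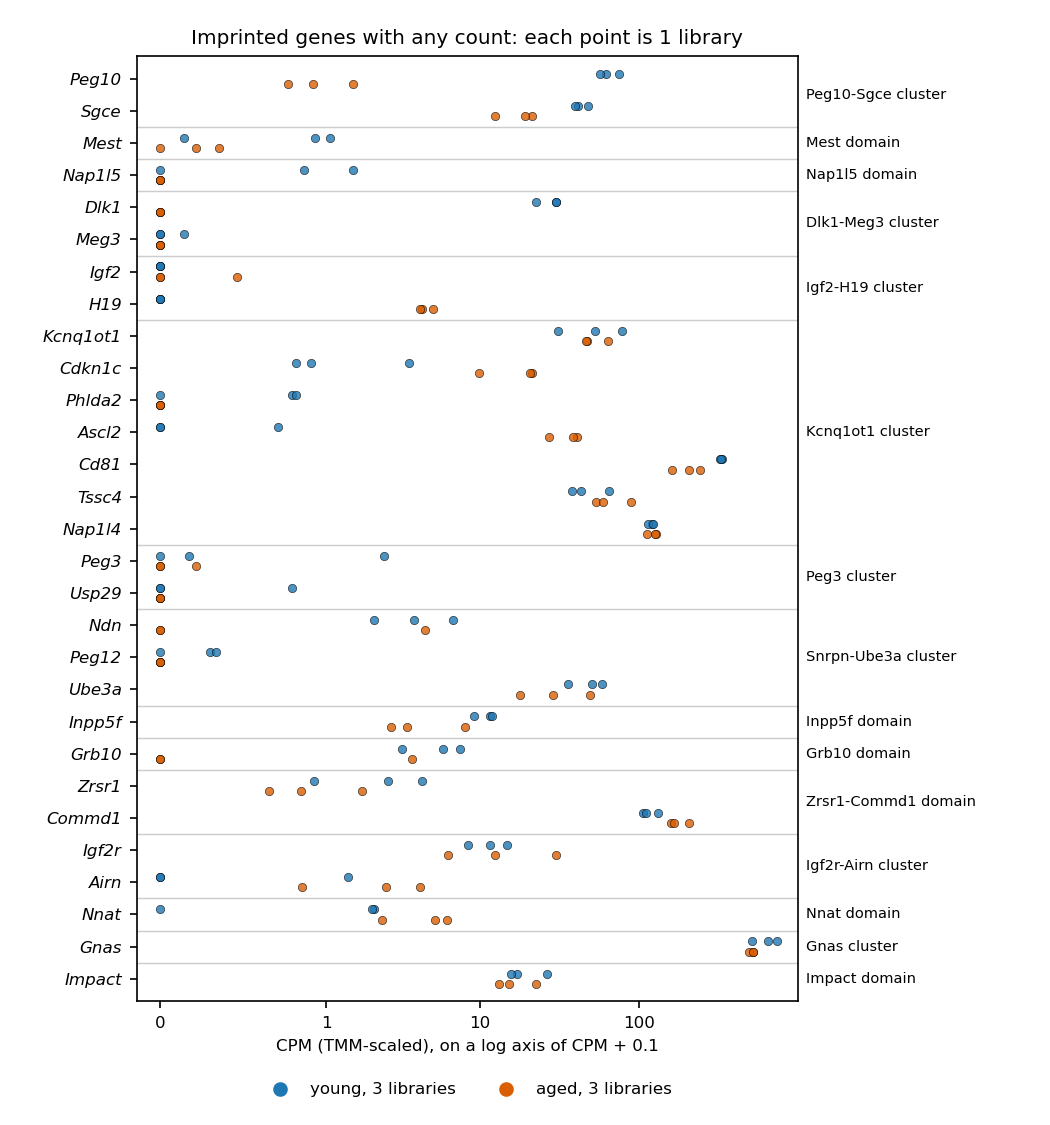
CPM in each library (points, 3 young in blue and 3 aged in orange; horizontal log axis of CPM + 0.1) for the 29 imprinted genes with any count, ordered by cluster. Dlk1 is at 0 in all aged libraries and H19 at 0 in all young libraries, while Nap1l4 lies between 112.6 and 129.2 CPM in all 6.

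The promoters of 3 genes are shown because they stand for the 3 patterns found: Dlk1 was lost in aged cultures, Ascl2 appeared in them, and Kcnq1ot1, the noncoding RNA that starts in the control region of the Ascl2 and Cdkn1c cluster, did not pass the test. The sequences are the 250 bases before the RefSeq start (build GRCm38.p6), read 5′ to 3′ on the gene's strand, with CG dinucleotides, the sites of DNA methylation, in capitals. The Dlk1 window is at chr12:109452573-109452822 on the plus strand, the Ascl2 window at chr7:142969265-142969514 on the minus strand and the Kcnq1ot1 window at chr7:143296548-143296797 on the minus strand.
Dlk1: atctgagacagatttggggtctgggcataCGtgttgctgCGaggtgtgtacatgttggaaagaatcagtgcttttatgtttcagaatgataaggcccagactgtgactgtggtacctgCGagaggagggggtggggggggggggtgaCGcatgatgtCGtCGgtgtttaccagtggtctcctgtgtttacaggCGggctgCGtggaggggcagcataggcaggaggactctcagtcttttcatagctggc
Ascl2: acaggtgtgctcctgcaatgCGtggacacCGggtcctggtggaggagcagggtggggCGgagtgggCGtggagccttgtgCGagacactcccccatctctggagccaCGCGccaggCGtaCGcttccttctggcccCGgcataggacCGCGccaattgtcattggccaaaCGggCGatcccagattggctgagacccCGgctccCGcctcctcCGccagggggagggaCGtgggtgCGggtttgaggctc
Kcnq1ot1: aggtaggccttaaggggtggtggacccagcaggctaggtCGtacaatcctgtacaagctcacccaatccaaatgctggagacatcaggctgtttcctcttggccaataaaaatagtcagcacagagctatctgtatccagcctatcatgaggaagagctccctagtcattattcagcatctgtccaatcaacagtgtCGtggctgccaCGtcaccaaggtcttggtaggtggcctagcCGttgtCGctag
The Ascl2 window holds 19 CG dinucleotides, the Dlk1 window 8 and the Kcnq1ot1 window 5, against a median of 6 over 32851 RefSeq windows of the same length. At least as many as in Ascl2 were found in 19.7% of all windows, at least as many as in Dlk1 in 43.0% and at least as many as in Kcnq1ot1 in 55.6%. None of the 3 holds TGCCGC, the hexamer bound by ZFP57, which itself contains a CG and was searched on both strands. The hexamer is in 8.68% of all windows. Among the 46 windows of the 31 members with a RefSeq entry, 6 hold it, and these belong to Meg3, Mest, Nap1l5, Plagl1 and Zim1. Such matches describe letters in the window. Methylation was not measured. Peg10, Sgce, H19, Cdkn1c, Nap1l4, Rtl1 and Impact have no entry.

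On chromosome 6, Peg10 and Sgce both fell in aged cultures. Peg10, a retrotransposon-derived gene needed for placenta formation, lies at 4747306 to 4760517 on the plus strand (GRCm38). It had 1188, 1856 and 1119 counts in young libraries 1 to 3 and 8, 12 and 24 counts in aged libraries 1 to 3. The mean of the young group was 64.8 ± 9.65 CPM and that of the aged group 0.954 ± 0.513 CPM (SD, n = 3 each), which is 67.9-fold lower. Every young library was above every aged library by a wide margin. The log2 change was -6.07 ± 0.43 (SE; edgeR adjusted p = 7.39e-06). Sgce, which encodes epsilon-sarcoglycan of a membrane complex, starts 99 bases from Peg10 and is read the opposite way, from 4747207 down to 4674350. Its level was 41.4, 39.5 and 48.0 CPM in young and 12.4, 21.4 and 19.3 CPM in aged libraries. The groups did not overlap, but Sgce kept a larger share of its young level than Peg10 did. Its log2 change was -1.28 ± 0.30 (SE; edgeR adjusted p = 0.0128), and without young library 1 the call was lost (edgeR adjusted p = 0.0508).

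The third member of that cluster, Asb4, a subunit gene of ubiquitin ligases, had 0 counts in all libraries. Casd1, a sialic acid acetyltransferase gene that starts 146.4 kb from Sgce on its other side, was chosen after its values were seen. It had 29.7, 23.0 and 34.9 CPM in young and 4.50, 11.99 and 15.2 CPM in aged libraries. Its log2 change was -1.47 ± 0.46 (SE; edgeR adjusted p = 0.0445), and the call was lost under 7 of 17 alternatives, with adjusted p up to 0.132. Besides Peg10 itself, Sgce and Casd1 were the 2 genes tested within 500 kb of the Peg10 start. Both were lower, beside 8.14% lower over all genes tested, and nothing is read from 2 genes. In windows of that size around Cdkn1c and Commd1, 13 of 15 and 5 of 6 tested genes did not pass. Further along chromosome 6 from Peg10, other genes near the cluster differed. The paraoxonase gene Pon3 fell from 62.7 ± 3.41 to 32.2 ± 4.63 CPM (SD, n = 3 each; edgeR adjusted p = 0.0127), a call lost without young library 1 (0.0600). Its neighbour Pon2, with means of 117.4 CPM (young) and 124.9 CPM (aged), did not pass.

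Dlk1, which encodes a membrane protein related to Notch ligands that holds back differentiation, had counts in every young library and in no aged library. It lies on chromosome 12 at 109452823 to 109463336, just after the promoter window printed above. It had 576, 743 and 446 counts in young libraries 1 to 3, or 30.04, 30.25 and 22.7 CPM. The aged libraries had 0 counts each. Set to the floor, which is 3 counts summed over the 3 aged libraries or 0.0656 CPM, Dlk1 was at least 421-fold lower (edgeR adjusted p = 3.71e-05). The call held under all 17 alternatives. The sum of the stromal markers was also lower in aged libraries, as given above, but its members differed in direction. Dcn had 287, 198 and 241 counts in young and 0 in aged libraries, and Pdgfrb had 49, 227 and 14 counts in young and 0, 1 and 0 counts in aged libraries. Lum went the other way, with 0 counts in young and 165, 20 and 112 counts in aged libraries. Dcn and Pdgfrb were called lower and Lum higher (edgeR adjusted p = 0.000526, 0.0153 and 0.00457). Their part in the loss of Dlk1 and Peg10 was not tested.

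The maternally expressed noncoding RNAs of the Dlk1 cluster were not found beside it. Meg3, whose start lies 88.2 kb from that of Dlk1, had 1 count, in young library 2. Rian, a host of small nucleolar RNAs, had 0 counts in all libraries, as did Rtl1, a retrotransposon-derived gene of the placenta. A count of 0 in all 6 libraries allows up to 0.0275 CPM (3 counts, counting error only). In the young cultures Dlk1 thus had counts and its imprinted neighbours had at most 1. No gene of the table within 500 kb of the Dlk1 start was tested. Of the neighbours fixed by name, Wars, a tRNA synthetase gene, fell from 92.0 ± 5.67 to 49.7 ± 5.72 CPM (SD, n = 3 each; edgeR adjusted p = 0.00858), while Mirg, Dio3 and Begain were at 0.

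H19 went the other way. It is a long noncoding RNA of fetal tissue that is transcribed from the maternal copy and shares enhancers with Igf2, the paternally expressed growth factor gene. It lies on chromosome 7 at 142575529 to 142578143 on the minus strand. All young libraries had 0 counts, and aged libraries 1 to 3 had 65, 75 and 65 counts, or 4.31, 5.05 and 4.13 CPM. The aged libraries were close to each other and all above the young ones. With the young group set to its floor of 0.0473 CPM, 3 counts summed over its libraries, H19 was at least 95-fold higher in aged libraries (edgeR adjusted p = 0.00469). The call held under all 17 alternatives, with adjusted p up to 0.0397.

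The H19 transcript carries the hairpin of miR-675, so the mature sequences (chr7:142577112-142577133 and chr7:142577078-142577099, minus strand, RefSeq on GRCm38.p6) are given with the seed, bases 2 to 8, in capitals.
miR-675-5p: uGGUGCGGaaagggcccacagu
miR-675-3p: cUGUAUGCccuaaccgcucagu
Mature miRNAs are not measured by these libraries, and the table's row for Mir675 was at 0.

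Igf2, whose start lies 88.7 kb from that of H19, had 3 counts, all in aged library 2, and was not tested. Its exons are shared over 62.8% of their length with a predicted gene on the same strand, which leaves the count uncertain. On the far side of H19, Mrpl23, a mitochondrial ribosome gene, had 12.6, 12.8 and 16.4 CPM in young and 31.2, 29.7 and 34.7 CPM in aged libraries. Its rise (edgeR adjusted p = 0.0204) was lost with library totals as the sole scaling (0.0920) and without young library 1 (0.0836), young library 2 (0.0680) or aged library 3 (0.0555). Lsp1, a leukocyte actin-binding protein gene 117.3 kb from H19, rose from 68.2 ± 17.4 to 207.2 ± 18.4 CPM (SD, n = 3 each; edgeR adjusted p = 0.000456) under all 17 alternatives.

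The Kcnq1ot1 cluster follows on the same chromosome and moved in 3 ways: Ascl2 and Cdkn1c rose, Cd81 fell, and Kcnq1ot1, Tssc4 and Nap1l4 did not pass. Kcnq1ot1 is the paternally expressed noncoding RNA that silences the cluster in cis on its own copy. It was annotated as a single exon from 143203458 to 143296549. Its level was 53.0, 31.1 and 78.7 CPM in young and 47.4, 46.7 and 64.0 CPM in aged libraries. The groups overlapped fully, and the log2 change was -0.04 ± 0.32 (SE; edgeR adjusted p = 0.951). With an offset for transcript length and GC content it was 0.61 and did not pass either.

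Ascl2, a transcription factor of trophoblast and intestinal stem cells that also acts in follicular helper T cells, was near 0 in young and present in all aged libraries. It lies at 142966829 to 142969264 on the minus strand, 391.1 kb from H19 by their starts. Young libraries 1 to 3 had 0, 11 and 0 counts and aged libraries 1 to 3 had 616, 573 and 431 counts. The mean rose from 0.149 ± 0.259 CPM to 35.6 ± 7.20 CPM (SD, n = 3 each), which is 238-fold higher. Only young library 2 had any Ascl2 count in that group. The log2 change was 7.70 ± 0.92 (SE; edgeR adjusted p = 0.000262). Without young library 2 the young group is at 0 and the fitted change was 12.24, a value that depends on the prior count.

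Cdkn1c, the cyclin-dependent kinase inhibitor p57 and a maternally expressed brake on growth, rose in the same direction. It lies at 143458339 to 143461050, 164.5 kb beyond the Kcnq1ot1 start. It had 15, 15 and 69 counts in young libraries 1 to 3 and 323, 306 and 156 counts in aged libraries 1 to 3. The highest young library, at 3.51 CPM, stayed below the lowest aged library, at 9.91 CPM. The mean was 10.6-fold higher, and the log2 change was 3.40 ± 0.77 (SE; edgeR adjusted p = 0.0101). It passed under all 17 alternatives, with log2 changes of 2.84 to 4.66. An antisense gene overlaps 30.7% of its exons, so part of these reads may belong to it. The related inhibitors Cdkn1a and Cdkn1b, which are not imprinted, had log2 changes of -0.13 ± 0.14 and 0.73 ± 0.33 (SE) and did not pass.

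Cd81, a tetraspanin of lymphocyte membranes, was the most abundant member per kilobase of exon in both groups. Its level was 335.4, 322.2 and 330.2 CPM in young and 207.8, 242.6 and 161.3 CPM in aged libraries. The young libraries were nearly equal and all above the aged ones. The log2 change was -0.69 ± 0.17 (SE; edgeR adjusted p = 0.0138), and the call was lost without young library 1 (0.0715). Tssc4, a splicing factor gene that starts 16.5 kb beyond Cd81, had 43.5, 64.7 and 37.9 CPM in young and 54.3, 89.2 and 60.01 CPM in aged libraries. Its groups overlapped, and the log2 change of 0.48 ± 0.28 (SE; edgeR adjusted p = 0.273) did not pass. Nap1l4, a histone chaperone gene, had a log2 change of 0.03 ± 0.16 (SE; edgeR adjusted p = 0.918), which was -0.38 with library totals as the sole scaling. Phlda2, a placental growth inhibitor, had 11, 0 and 12 counts in young and 0 in aged libraries and was not tested. Slc22a18, an organic cation carrier gene, had 0 counts.

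Of all 25 genes of the table from Lsp1 to Nap1l4, a span of 1088.3 kb chosen after the values were seen, 11 were tested, 5 were higher, 1 was lower and 5 did not pass, beside 11.2% higher and 8.14% lower over all genes tested. Since the edges of the span were set after the values were seen, nothing is read from these counts. The 5 higher genes were Lsp1, Mrpl23, H19, Ascl2 and Cdkn1c. Genes that did not pass lay between them.

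**Figure D2:**
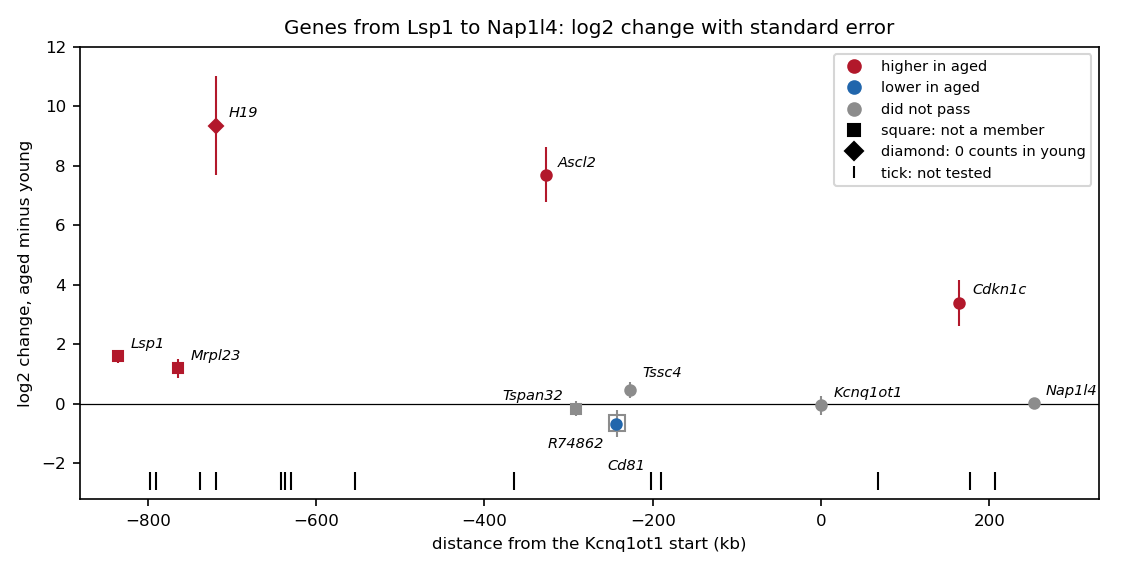
Log2 change (aged minus young, with standard error) of the 11 tested genes from Lsp1 to Nap1l4 against distance from the Kcnq1ot1 start in kb; squares are genes outside the 38, ticks are untested genes, and the diamond (H19) has 0 young counts, so that its fitted value depends on the prior count. H19, Ascl2 and Cdkn1c stand at 9.36, 7.70 and 3.40, and Tssc4 (0.48), Cd81 (-0.69) and Kcnq1ot1 (-0.04) lie between Ascl2 and Cdkn1c.

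Commd1 rose by a small amount. It encodes a protein of copper handling and of NF-kB turnover, and Zrsr1, a paternally expressed copy of a splicing factor gene, lies within it on chromosome 11 (22896136 to 22982382). Commd1 had 105.8, 110.8 and 132.5 CPM in young and 160.2, 167.5 and 206.1 CPM in aged libraries. The groups did not overlap, and the log2 change was 0.61 ± 0.17 (SE; edgeR adjusted p = 0.0298). With library totals as the sole scaling it was 0.20 (0.429), and the call was also lost without young library 1 (0.135), young library 2 (0.0848), aged library 2 (0.0658) or aged library 3 (0.0946). Zrsr1 had 82, 63 and 16 counts in young and 10, 26 and 6 counts in aged libraries. Its log2 change of -1.45 ± 1.21 (SE; edgeR adjusted p = 0.468) did not pass. The Zrsr1 gene covers 6.94% of the Commd1 exons on the other strand, and the strand setting of the counting is not given in the sources used here. The predicted gene Gm28048 covers 4.95% on the same strand, where a strand setting would not separate the reads.

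**Figure D3:**
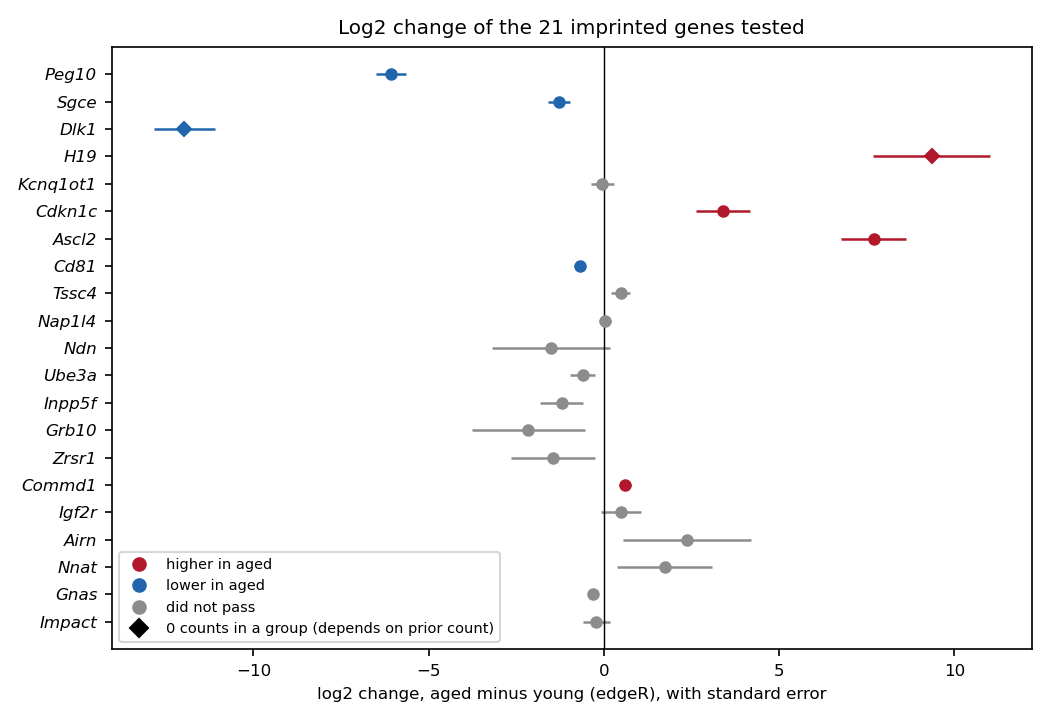
Log2 change (aged minus young, with standard error) of the 21 imprinted genes tested, red for higher, blue for lower and grey for genes that did not pass; diamonds mark Dlk1 and H19, which have 0 counts in a group. Peg10, at -6.07, and Ascl2, at 7.70, are far from 0 beside their errors, while Grb10, Ndn and Airn have errors of 1.62 to 1.82.

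The most abundant member by CPM was Gnas, which encodes the stimulatory G protein alpha subunit and is imprinted in some tissues. It had 652.0, 738.7 and 512.4 CPM in young and 521.1, 490.0 and 520.0 CPM in aged libraries. Young library 3 lay within the aged range. The log2 change was -0.31 ± 0.15 (SE; edgeR adjusted p = 0.176). With library totals as the sole scaling it was -0.74 and passed (0.00715), and it also passed without young library 3 (0.0407). Nespas, an antisense RNA of the locus, and the predicted gene Gm20721 overlap 22.0% of its exon length on the other strand.

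Ube3a and Inpp5f had lower means in aged libraries without passing. Ube3a, a ubiquitin ligase imprinted in neurons, had 50.9, 36.0 and 59.0 CPM in young and 49.2, 17.9 and 28.8 CPM in aged libraries. Its groups overlapped (log2 change of -0.60 ± 0.36, SE; edgeR adjusted p = 0.293), and 27.3% of its exon length is shared with other genes. Inpp5f, an inositol phosphatase gene of which a single transcript variant is imprinted, had 11.6, 12.01 and 9.15 CPM in young and 8.08, 2.69 and 3.43 CPM in aged libraries. Its groups did not overlap, with a log2 change of -1.21 ± 0.61 (SE; edgeR adjusted p = 0.207).

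The Igf2r cluster had low counts. Igf2r, the maternally expressed receptor that carries IGF2 to lysosomes, had 8.45, 11.5 and 14.9 CPM in young and 6.29, 30.2 and 12.4 CPM in aged libraries. Aged library 2 was the highest of all, and without it the log2 change moved from 0.49 ± 0.56 (SE; edgeR adjusted p = 0.619) to -0.31. Airn, the paternally expressed antisense RNA that silences Igf2r, had 27, 0 and 0 counts in young and 38, 10 and 65 counts in aged libraries. Its groups overlapped and it did not pass (log2 change of 2.37 ± 1.82, SE; edgeR adjusted p = 0.428).

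Nnat, Grb10, Ndn and Impact also did not pass. Nnat, which encodes neuronatin, a small membrane protein of neurons and endocrine cells, had 0, 51 and 40 counts in young and 78, 92 and 37 counts in aged libraries. In CPM its groups did not overlap, narrowly, at up to 2.08 in young and from 2.35 in aged libraries. This separation depends on the TMM scaling. Relative to library totals the groups overlapped, with 40 counts of 17515659 in young library 3 and 37 of 17796301 in aged library 3. Grb10, an adaptor that restrains insulin receptor signalling, had 61, 185 and 115 counts in young and 56, 0 and 0 counts in aged libraries. Ndn, a paternally expressed growth suppressor of neurons, had 40, 94 and 133 counts in young and 0, 66 and 0 counts in aged libraries. In both Grb10 and Ndn a single aged library held all aged counts. Without aged library 1 Grb10 passed (edgeR adjusted p = 0.00957), and without aged library 2 Ndn passed (0.0223). Impact, an inhibitor of the amino acid sensor kinase GCN2, had 17.1, 15.7 and 26.5 CPM in young and 13.2, 22.6 and 15.2 CPM in aged libraries (log2 change of -0.22 ± 0.38, SE; edgeR adjusted p = 0.759).

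Counts were absent from 9 members in all libraries: Asb4, Rtl1, Rian, Slc22a18, Zim1, Snrpn, Magel2, Mkrn3 and Plagl1. Of these, Snrpn, Magel2 and Mkrn3 are 3 of the 6 members of the Snrpn and Ube3a cluster, known for the Prader-Willi region and for expression in neurons, while Ndn, Ube3a and Peg12 of that cluster had counts. For Snrpn 34.1% of exon length is shared with other genes, among them Snurf, which was also at 0, so reads of shared exons may have been dropped in counting. The Peg3 cluster was counted in a single library: Peg3, a zinc finger gene, had 60 counts and Usp29, a deubiquitinase gene that starts 147 bases away, had 14 counts in young library 2. All other libraries had at most 1 count of either. Mest, a paternally expressed hydrolase gene, had 16, 1 and 21 counts in young and 1, 2 and 0 counts in aged libraries, and 23.1% of its exons overlap Copg2. Nap1l5, a histone chaperone gene inside Herc3, had 29, 17 and 0 counts in young and 0 in aged libraries. Peg12 had 5 counts in all, all in young libraries 1 and 2.

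Per kilobase of exon, which allows levels to be compared between genes, Cd81 led in young libraries with a mean of 114.4 CPM per kb. Gnas, Nap1l4, Tssc4 and Commd1 followed at 56.7, 38.7, 26.4 and 19.6 CPM per kb. Peg10, at 9.72, and Dlk1, at 4.89 CPM per kb, came next and were above Sgce at 4.05 CPM per kb. In aged libraries Cd81, Gnas, Nap1l4, Tssc4 and Commd1 had 70.8, 45.6, 39.6, 36.8 and 29.97 CPM per kb. Ascl2 had moved up to 21.9 and Cdkn1c to 8.49 CPM per kb, while Peg10 was at 0.143 CPM per kb. H19 was at 1.83 CPM per kb in aged libraries. The loss of Dlk1 and Peg10 and the appearance of Ascl2 are thus differences of members that rank next below the 5 most abundant ones. For Dlk1 and Peg10 this is their rank in young libraries, and for Ascl2 its rank in aged libraries. Summed over the 38 genes the level was 1473 to 1624 CPM in young and 1267 to 1338 CPM in aged libraries.

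Genes that write, read or guard imprints included 5 that fell and 0 that rose of 25 tested. This is 20.0% called, beside 19.4% of all genes tested (11.2% higher and 8.14% lower). Their median log2 change was -0.54, beside -0.10 over all genes tested. Dnmt1, which copies DNA methylation after replication, fell from 62.9, 83.1 and 66.1 CPM in young to 23.2, 31.0 and 35.4 CPM in aged libraries. The groups were well apart, and the log2 change of -1.24 ± 0.25 (SE; edgeR adjusted p = 0.00517) held under all 17 alternatives. Dnmt3a, a de novo methylase, fell from 12.3, 22.5 and 15.7 CPM to 2.91, 4.04 and 5.02 CPM. Its log2 change of -2.08 ± 0.51 (SE; edgeR adjusted p = 0.0156) was lost with the length and GC offset (-1.47, adjusted p = 0.0633) and without young library 2 (0.0976). Arid4a, a chromatin factor of the Snrpn region, had a log2 change of -1.23 ± 0.28 (SE; edgeR adjusted p = 0.0106), lost without young library 1 (0.0625). The insulator protein gene Ctcf had -0.82 ± 0.23 (0.0278) and Trim28, the corepressor that ZFP57 recruits, -0.66 ± 0.19 (0.0306). Both lost their calls without young library 1, 2 or 3 and without aged library 2 or 3, Trim28 also without aged library 1 and Ctcf also with the length and GC offset. Zfp57 itself had 4 counts, all in aged library 2.

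The other members of that list did not pass, among them Uhrf1, the partner of DNMT1, at -0.37 ± 0.25 (SE), and the Polycomb genes Eed and Ezh2 at 0.02 ± 0.33 and 0.05 ± 0.22. Zfp445, a further zinc finger guardian of imprints, had 0.11 ± 0.52. The number that fell was 12 with library totals as the sole scaling and 3 with the length and GC offset. Without young library 1 it was 2, without young library 2 it was also 2, and without young library 3, aged library 2 or aged library 3 it was 3.

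**Figure D4:**
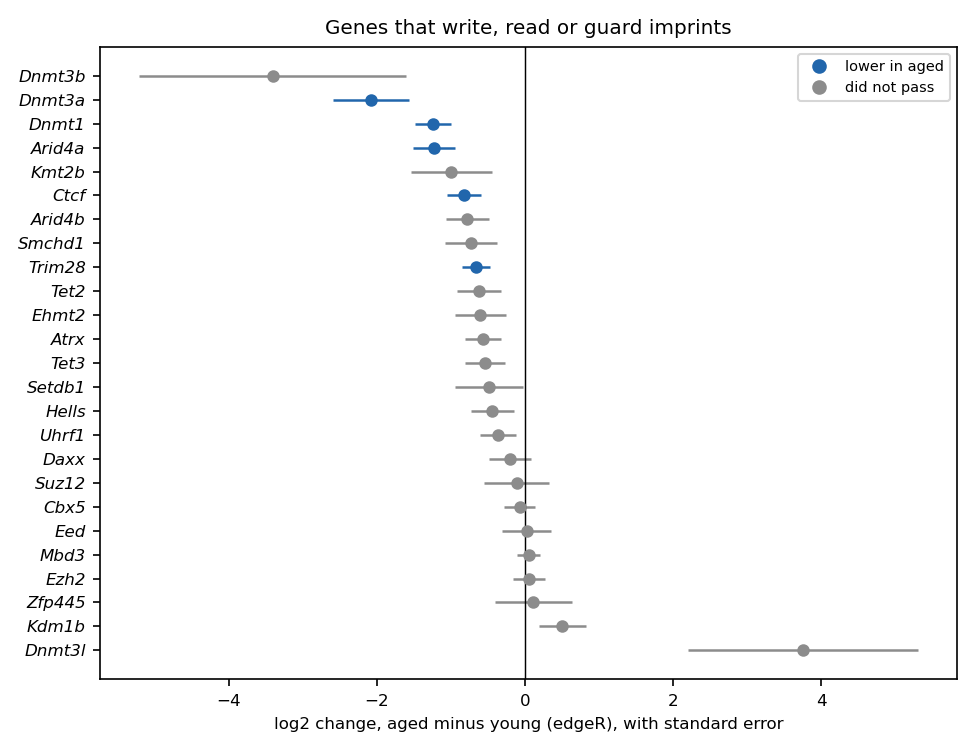
Log2 change (aged minus young, with standard error) of the 25 tested genes that write, read or guard imprints, blue for genes that fell and grey for genes that did not pass. Dnmt3a, Dnmt1, Arid4a, Ctcf and Trim28 lie between -2.08 and -0.66, and Dnmt3b and Dnmt3l have the widest errors.

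Several members act on the insulin-like growth factor pathway, in which IGF2 binds the receptor IGF1R, IGF binding proteins hold the ligand, and the signal runs through IRS proteins and AKT to restrain FOXO factors. Of 18 other tested genes of this pathway 2 rose and 4 fell, or 33.3% called beside 19.4% of all genes tested, with a median log2 change of -0.19. Igfbp4 rose from 186.4, 214.3 and 157.4 CPM in young to 842.9, 892.9 and 712.8 CPM in aged libraries, all above the young ones. Its log2 change of 2.13 ± 0.16 (SE; edgeR adjusted p = 1.00e-05) held under all 17 alternatives. Igfbp7 had 1003 ± 15.9 and 1902 ± 267.5 CPM (SD, n = 3 each; edgeR adjusted p = 0.000552), lost with the length and GC offset (log2 change of 0.16).

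The receptor gene Igf1r had 37, 58 and 39 counts in young and 1, 0 and 0 counts in aged libraries. It passed (edgeR adjusted p = 0.0256) but lost its call under 10 of 17 alternatives, with adjusted p up to 0.123. Irs2 fell by 0.82 ± 0.18, Foxo1 by 1.59 ± 0.38 and Akt1 by 0.60 ± 0.18 on the log2 scale (SE; edgeR adjusted p of 0.00983, 0.0129 and 0.0378). Irs2 and Foxo1 lost their calls with the length and GC offset, Irs2 also without young library 1 and Foxo1 without young library 2. Akt1 lost its call without young library 1 or 2 or any of the aged libraries. The list's count was 10 with library totals as the sole scaling and 3 without young library 1 or 2.

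Genes beside the imprinted clusters that are not among the 38 had 10 calls among 40 tested, namely 3 rises and 7 falls. This is 25.0%, near the 19.4% of all genes tested (11.2% higher and 8.14% lower). Their median log2 change was -0.32. Without young library 1 the count was 3 and without young library 2 it was 5. Besides Lsp1, Mrpl23, Wars and Pon3, Herc3, the ubiquitin ligase gene that holds Nap1l5, had 198, 136 and 165 counts in young and 8, 1 and 0 counts in aged libraries. Its mean was 40.6-fold lower (edgeR adjusted p = 0.0142), a call lost without young library 1 (0.0713). Herc3 thus had few aged counts, as Nap1l5 inside it had none. Sf3b5, a splicing factor gene near Plagl1, rose from 200.8 ± 24.0 to 353.9 ± 26.8 CPM (SD, n = 3 each; edgeR adjusted p = 0.003), lost with library totals as the sole scaling (0.0563), while Plagl1 itself had 0 counts.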

How the data were processed

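RNA of cultured brain ILC2 was sequenced in 3 young and 3 aged libraries, grouped by their titles. The authors deposited 1 table of raw counts, which are whole and not normalized. Tools listed in the submitters' processing notes are STAR 2.5.3a, DESeq2 1.1, Cufflinks 2.0, FastQC 1.0.0 and bcl2fastq 2.20.0.422, with mm10 as the build. For the counting tool, its annotation and its strand setting the sources used here give nothing. If strand was ignored, reads of overlapping genes cannot be told apart.

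Counts were tested in R 4.3.3 with edgeR 4.0.16 (TMM, filterByExpr with minimum count 10 and minimum total 15, glmQLFit and glmQLFTest), aged against young over all 11805 genes kept (48.3%), with Benjamini-Hochberg adjustment over all of them and a threshold of 0.05. Adjusted p-values in brackets are edgeR values too. Standard errors (SE) were taken as the absolute log2 change over the square root of F. A group with 0 counts was given a floor of 3 counts over the group, for counting error only. Coordinates, exon lengths (all exons of a gene merged) and overlaps came from GENCODE vM21 (GRCm38, which mm10 denotes), where all 38 members matched, and promoters and miRNAs from RefSeq (GRCm38.p6). No 2 replicates were alike within sampling noise (chi-square per degree of freedom 35.7 to 89.2). On simulated counts over 11457 genes the test recovered 20.0% of 2-fold and 59.6% of 4-fold changes, with 5.06% false calls. Far fewer genes were changed there than were called in the data, equally up and down. These rates therefore need not hold for the data.

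The members and lists were chosen with earlier results of these data known. Members that passed or had a mean of at least 1 CPM are given by library, others by counts; up to 6 called genes of each other list are named by smallest p. Other list genes that are named (Casd1, Pon2, Cdkn1a, Cdkn1b, Uhrf1, Eed, Ezh2, Zfp445, Zfp57, Dnmt3l, Dnmt3b, Copg2, the cell type markers and genes at 0) were chosen after their values were seen. The 17 alternatives were DESeq2 1.42.0, limma-voom (limma 3.58.1), other scalings and filters, robust dispersion, a replicate block, an offset for transcript length and GC content (mgcv 1.9.3), both together, and leaving out each library.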

Additional observations from a re-analysis of the deposited data

How the results depend on the processing

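Of the 8 members called, Peg10, Dlk1, H19, Cdkn1c and Ascl2 passed under all 17 alternatives, and none of the 8 changed direction. The count of called members ran from 5 to 9 when a library was left out and was 8 with DESeq2, the length and GC offset and library totals as the sole scaling, where Gnas took the place of Commd1. Library totals moved the median log2 change of all genes tested from -0.101 to -0.517 and the share of calls that were higher from 58.0% to 23.2%, so directions of small changes are relative to TMM. The median of the members was -0.634 with library totals, -0.694 without the filter on low counts (29 members), -0.577 with DESeq2 (25 members) and -0.517 to -0.164 with a library left out. The calls over all genes ran from 1314 to 2141 with a library left out, those of imprint guardians from 2 to 4, of cluster neighbours from 3 to 8 and of growth factor signalling genes from 3 to 5. Called imprint guardians numbered 12 with library totals and 3 with the length and GC offset, with or without the replicate block beside it; growth factor signalling genes numbered 10 with library totals and 3 with the block and offset together.

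Whether the replicate number pairs the libraries cannot be told from their deviations, since all correlations were near 0. Same-numbered libraries correlated at 0.0196, 0.00883 and 0.0414, and libraries with unlike numbers at -0.0273 to 0.0125. Young library 2 correlated best with aged library 1 (0.0125). With the number as a replicate block 2008 genes and 8 members were called, and no call of a member changed.

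Changes of sign were seen only in members that did not pass. Kcnq1ot1 was at 0.041 with the replicate block, 0.613 with the length and GC offset, 0.614 with both, 0.085 with limma-voom and -0.311 to 0.356 with a library left out. Tssc4 was at -0.027 with the offset and -0.030 with block and offset. Nap1l4 was at -0.384 with library totals, -0.043 with the offset, -0.043 with block and offset, and -0.006 to 0.091 with a library left out. With a library left out Igf2r ran from -0.311 to 0.874 and Impact from -0.477 to 0.081. Grb10, Ndn and Airn had few counts, which differed widely between libraries of the same group. Whether more depth would change their results was not tested.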

Other observations

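Dnmt3l, a cofactor of de novo methylation known from germ cells, had counts in all aged libraries. It had 0, 40 and 0 counts in young libraries 1 to 3 and 154, 96 and 92 counts in aged libraries 1 to 3, and the groups did not overlap. Its log2 change of 3.75 ± 1.55 (SE) did not pass in edgeR (adjusted p = 0.122), but it passed with DESeq2 (0.0305), with limma-voom (0.0450) and in edgeR without young library 2 (0.0053). Dnmt3b, a de novo methylase, had 150, 51 and 1 counts in young and 12, 0 and 2 counts in aged libraries and did not pass (edgeR adjusted p = 0.229).

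Copg2, a coat protein gene that overlaps Mest on the opposite strand, had 25.8, 18.2 and 10.9 CPM in young and 3.44, 16.8 and 1.21 CPM in aged libraries and did not pass (edgeR adjusted p = 0.28). It passed without aged library 2, the library with the highest aged value (edgeR adjusted p = 0.0209).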
